A study of Homo sapiens with 8 samples.

Results

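ATF4, ATF3, TRIB3, CEBPG, JDP2, PPP1R15A, STC2 and EIF4EBP1 are regulators and targets of the cellular stress response. They were taken by symbol from the deposited table and are 8 of its 14645 loci. Each has 1 entry. The cells were MCF10A, an immortalised, non-tumorigenic human breast epithelial line, and the values come from sequencing of total RNA after removal of ribosomal RNA. There were 4 groups of 2 libraries: solvent alone (DMSO), 250 nM of the ATR kinase inhibitor AZD6738, ionizing radiation at 20 Gy in solvent (IR), and the inhibitor with the same radiation dose (AZD6738+IR). Solvent or inhibitor was present from 2 hours before the irradiation and then for 3 days, in medium that held horse serum, EGF, hydrocortisone, cholera toxin and insulin in all groups. All libraries are of this 1 cell line.

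In the integrated stress response, kinases that sense amino acid shortage, misfolded proteins, double-stranded RNA or haem shortage phosphorylate the initiation factor eIF2. Most translation then slows, while the mRNA of ATF4, a basic leucine zipper (bZIP) transcription factor, is translated better through its upstream reading frames. ATF4 pairs with C/EBP proteins such as CEBPG and binds composite C/EBP-ATF response elements in genes of amino acid supply, tRNA charging and feedback control. ATF3 and JDP2 are closely related bZIP factors of the AP-1 and CREB/ATF families, TRIB3 is a pseudokinase that binds ATF4 and restrains it, and PPP1R15A (GADD34) directs protein phosphatase 1 to eIF2. STC2 is a secreted glycoprotein induced by stress, and EIF4EBP1 (4E-BP1) holds back cap-dependent translation by binding eIF4E. Only RNA was measured here, so the phosphorylation of eIF2 and the amounts of these proteins are not known.

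The sequences before the transcription starts show where the letters of elements bound by these factors occur in the genes whose RNA is described next. For 7 of the 8 genes, RefSeq windows of 250 bases before to 50 after each annotated start (GRCh38.p14) were searched on both strands for the core of the C/EBP-ATF response element (TGATGNAA), the cyclic AMP response element (TGACGTCA) and the AP-1 element (TGANTCA). The core lay 191 bases before an upstream start of ATF3 (plus strand, chr1:212565171-212565268), 16 bases before a start of JDP2 (plus strand, chr14:75427961-75428021) and 42 bases before a start of CEBPG (plus strand, chr19:33374026-33374112). The cyclic AMP response element lay 58 bases before the start of PPP1R15A (plus strand, chr19:48872352-48872381). Capitals mark the matched letters.
ATF3: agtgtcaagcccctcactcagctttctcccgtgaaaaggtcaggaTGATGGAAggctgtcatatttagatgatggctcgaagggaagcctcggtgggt
JDP2: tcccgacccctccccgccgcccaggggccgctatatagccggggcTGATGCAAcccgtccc
CEBPG: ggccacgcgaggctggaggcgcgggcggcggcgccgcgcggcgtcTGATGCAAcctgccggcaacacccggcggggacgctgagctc
PPP1R15A: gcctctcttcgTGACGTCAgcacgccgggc
None of the 3 motifs occurred in the windows of ATF4, TRIB3 or STC2, which says only that these letters are not within them, and EIF4EBP1 was not searched. The other windows searched for ATF3, JDP2 and CEBPG held none of the 3 motifs. Of all 35116 windows, 3.62% held TGATGNAA, 1.85% TGACGTCA and 7.71% TGANTCA. Counted by gene, with a match in any window, these shares were 4.46%, 2.25% and 9.37% of 27305 genes. The motifs do not overlap each other in the 4 stretches shown.

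Levels are given in FPKM, fragments scaled to transcript length and to the total of the library, which is a level per length. The table names no unit, and FPKM is an assumption. Fold is the ratio of group means in FPKM. Log2 fold changes are differences of log2(FPKM + 1), with a standard error (SE) from limma. A gene was called higher or lower at a Benjamini-Hochberg adjusted p under 0.05 over 12809 tested loci, those with a mean of at least 1 FPKM, and all 8 genes were tested. The depth of sequencing behind the values is unknown, and whether a group's libraries were separate cultures is not stated, so p-values speak for the spread between libraries only, and part of that may be technical. A change in bulk RNA also cannot tell fewer cells of a kind from less RNA per cell. The FPKM of a library summed to between 864306 and 969381. The highest sum was that of AZD6738+IR library B, where the 4 most abundant loci took 61.42% of it against 53.27% to 56.78% in the other libraries. Library A was above library B for 7 of the 8 genes in DMSO, AZD6738 and IR and for 6 of 8 in AZD6738+IR. Of 7 epithelial markers, 5 were matched, and their summed level was 1654 to 1663 FPKM in DMSO and 3863 to 4137 in AZD6738+IR. Most of that sum was KRT17, with group means of 1151 and 3236 FPKM, and KRT14 and CDH1 were also higher in AZD6738+IR, whereas EPCAM was lower, at 26.6 and 18.6, as was TP63, at 11.9 and 4.98. The only matched markers of other tissues were DCN of mesenchyme and CD68 of the blood and immune list, at 1.65 to 4.55 FPKM for DCN and 7.41 to 12.1 FPKM for CD68. The part of these shifts in the results was not tested.

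**Figure D1:**
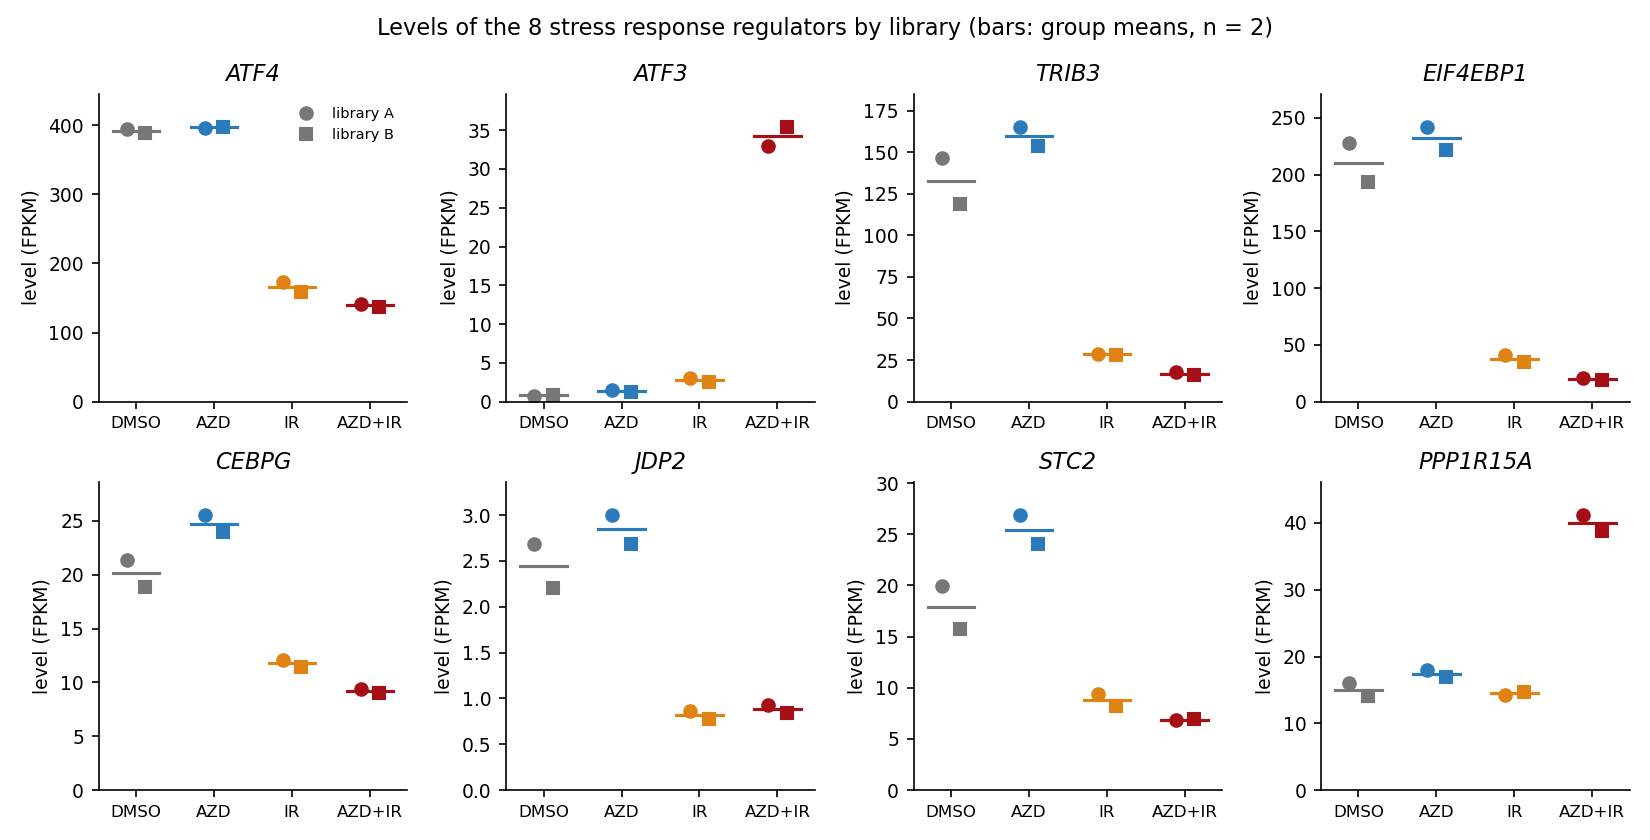
Level in FPKM (y axis, from 0, linear) of each gene in the 8 libraries, by group (x axis, AZD stands for AZD6738). Circles are library A, squares library B and bars the group means (n = 2). ATF4, TRIB3, EIF4EBP1, CEBPG, JDP2 and STC2 are lower in the irradiated libraries, ATF3 reaches 33.0 and 35.5 FPKM only in the libraries given both treatments, and PPP1R15A is at 41.2 and 38.9 only there.

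ATF4 RNA was abundant without irradiation and fell after it. Its level was 394.9 and 388.9 FPKM in the DMSO libraries A and B, 396.8 and 398.3 in AZD6738, 172.7 and 159.3 in IR, and 141.7 and 137.2 in AZD6738+IR. All 4 irradiated libraries lay far below the 4 others, and the AZD6738+IR libraries lay below the IR libraries. The fall was 2.36-fold in IR against DMSO (log2 fold change -1.24, SE 0.0464, limma adjusted p = 2.15e-05) and 2.81-fold in AZD6738+IR against DMSO (-1.48, adjusted p = 2.92e-06 by limma). Against IR alone, AZD6738+IR was 1.19-fold lower (-0.25, SE 0.0464, limma adjusted p = 0.00626). ATF4 (chromosome 22, 39520559 to 39522686, plus strand, hg38) has 4 annotated pseudogenes, none of them named in the table, and how reads shared with them were assigned is not known, so its level is uncertain.

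The bZIP partner CEBPG, the fellow factor JDP2 and ATF3 did not share 1 pattern. CEBPG (chromosome 19, 33373709 to 33382686) measured 21.4 and 18.9 FPKM in DMSO, 25.5 and 23.9 in AZD6738, 12.1 and 11.4 in IR, and 9.40 and 9.05 in AZD6738+IR. It fell 1.71-fold in IR against DMSO (log2 fold change -0.73, SE 0.0693, limma adjusted p = 0.000317) and a further 1.27-fold in AZD6738+IR against IR (-0.32, SE 0.0693, limma adjusted p = 0.0111). The latter call rests on IR library A, without which limma gave -0.28 with an adjusted p = 0.0624. The groups did not overlap for CEBPG in any of the 6 pairs of groups.

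JDP2 (chromosome 14, 75426943 to 75474107), a repressor of AP-1, was the scarcest of the 8 genes in the irradiated libraries. It measured 2.69 and 2.21 FPKM in DMSO, 3.00 and 2.69 in AZD6738, 0.868 and 0.779 in IR, and 0.931 and 0.839 in AZD6738+IR. The IR and AZD6738+IR libraries overlapped with each other and lay below all others. JDP2 fell 2.97-fold in IR against DMSO (log2 fold change -0.92, SE 0.0846, limma adjusted p = 0.000279), and with a pseudocount of 0.1 FPKM this log2 fold change was -1.46. AZD6738+IR differed from IR by 0.05 (95% interval -0.16 to 0.26, limma adjusted p = 0.671). The annotation places an antisense gene over JDP2 on the opposite strand, and although the library kit keeps strand, whether counting used it is not known here.

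ATF3 (chromosome 1, 212565407 to 212620777), which is induced early by many stresses and can repress as well as activate, was the scarcest of the 8 genes in DMSO. It measured 0.730 and 0.873 FPKM in DMSO, 1.48 and 1.29 in AZD6738, 3.05 and 2.58 in IR, and 33.0 and 35.5 in AZD6738+IR. The groups did not overlap, and the AZD6738+IR libraries stood above all others by a wide margin. ATF3 rose 3.51-fold in IR against DMSO (log2 fold change 1.08, SE 0.0834, limma adjusted p = 0.000147) and 12.2-fold in AZD6738+IR against IR (3.21, SE 0.0834, limma adjusted p = 5.32e-06). Against DMSO, AZD6738+IR was 42.7-fold higher (4.29, adjusted p = 8.62e-07 by limma). At such low starting levels the pseudocount matters: with 0.1 FPKM in place of 1 the log2 fold change in IR against DMSO was 1.69, and that in AZD6738+IR against DMSO was 5.25. The ratio of the level of ATF3 to that of ATF4 was 0.00185 and 0.00225 in the DMSO libraries, 0.0176 and 0.0162 in IR, and 0.233 and 0.259 in AZD6738+IR. ATF3 and JDP2, relatives in sequence, thus stood in a ratio of 0.272 and 0.396 in DMSO and of 35.4 and 42.3 in AZD6738+IR.

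The feedback regulators TRIB3 and PPP1R15A moved apart. TRIB3 (chromosome 20, 380760 to 397559) measured 146.2 and 118.6 FPKM in DMSO, 165.4 and 153.5 in AZD6738, 28.9 and 27.9 in IR, and 17.7 and 16.1 in AZD6738+IR. It fell 4.66-fold in IR against DMSO (log2 fold change -2.17, SE 0.106, limma adjusted p = 3.72e-05) and a further 1.68-fold in AZD6738+IR against IR (-0.72, SE 0.106, limma adjusted p = 0.00257). Its level relative to ATF4 was 0.370 and 0.305 in DMSO, 0.167 and 0.175 in IR and 0.125 and 0.117 in AZD6738+IR, so TRIB3 RNA fell by a larger factor than ATF4 RNA.

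PPP1R15A (chromosome 19, 48872421 to 48876058) measured 15.97 and 14.04 FPKM in DMSO, 17.9 and 17.0 in AZD6738, 14.3 and 14.7 in IR, and 41.2 and 38.9 in AZD6738+IR. The IR libraries lay within the range of the DMSO libraries, and the AZD6738+IR libraries were above all others. IR against DMSO gave a log2 fold change of -0.04 (95% interval -0.21 to 0.12, limma adjusted p = 0.598), and the sign of this difference turned without DMSO library A (0.04) and under 2 of the scalings, uncalled each time. AZD6738+IR was 2.76-fold above IR (1.41, SE 0.0682, limma adjusted p = 5.49e-05) and 2.67-fold above DMSO (1.36, SE 0.0682, limma adjusted p = 1.32e-05).

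The effectors STC2 and EIF4EBP1 fell with ATF4. STC2 (chromosome 5, 173314723 to 173328414, minus strand) measured 20.0 and 15.7 FPKM in DMSO, 26.9 and 24.1 in AZD6738, 9.36 and 8.26 in IR, and 6.85 and 6.92 in AZD6738+IR. It fell 2.03-fold in IR against DMSO (log2 fold change -0.94, SE 0.12, limma adjusted p = 0.00101). The IR and AZD6738+IR libraries did not overlap, yet the difference of -0.31 (95% interval -0.61 to -0.02) missed the threshold with a limma adjusted p = 0.0735. It passed in fits without DMSO library A (adjusted p = 0.0281, limma) or DMSO library B (0.028), with the same difference, and in a fit of the IR and AZD6738+IR libraries alone (limma adjusted p = 0.0338).

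EIF4EBP1 (chromosome 8, 38030534 to 38060365) had the largest fall of the 8 genes. It measured 227.6 and 193.2 FPKM in DMSO, 242.4 and 221.7 in AZD6738, 40.7 and 34.8 in IR, and 20.8 and 19.0 in AZD6738+IR. Irradiated and non-irradiated libraries were far apart, and the DMSO and AZD6738 libraries overlapped. The fall was 5.57-fold in IR against DMSO (log2 fold change -2.45, SE 0.112, limma adjusted p = 3.19e-05), 1.89-fold in AZD6738+IR against IR (-0.89, SE 0.112, limma adjusted p = 0.00142) and 10.6-fold in AZD6738+IR against DMSO (-3.33, SE 0.112, limma adjusted p = 3.63e-06). EIF4EBP1 has 2 annotated pseudogenes that the table does not name, so reads may be shared with them.

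**Figure D2:**
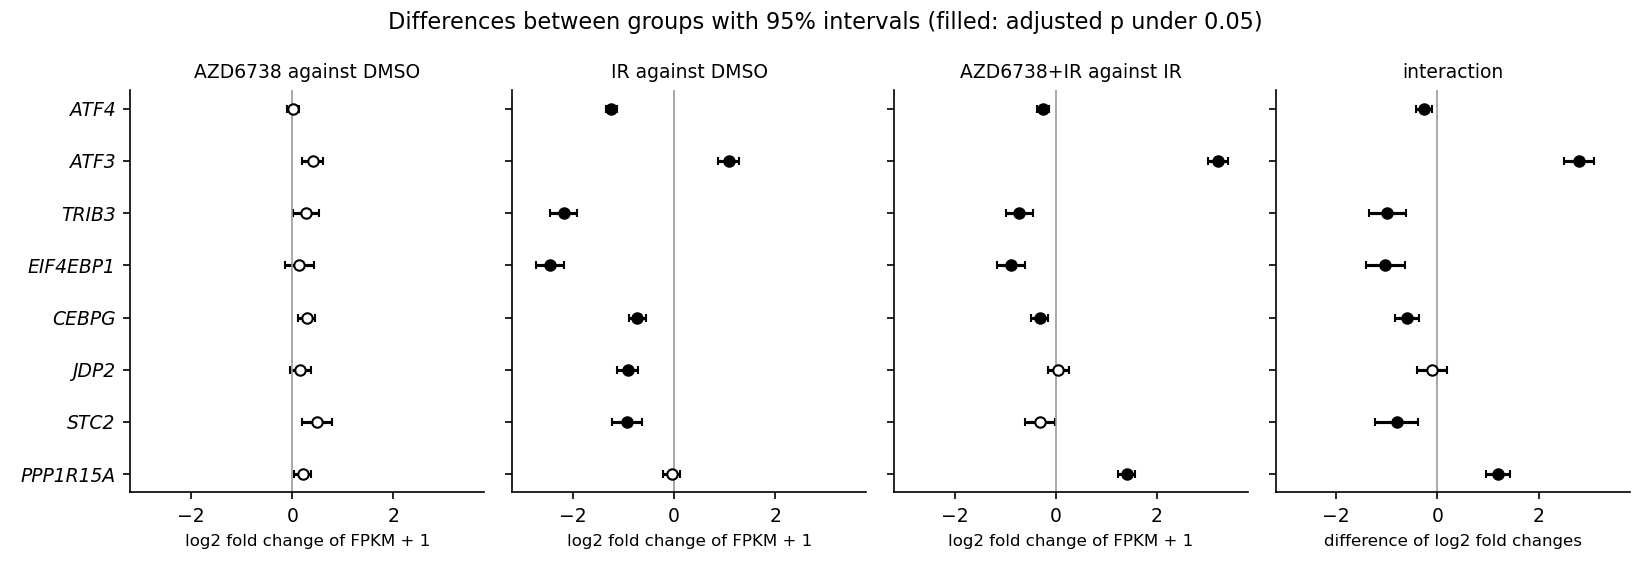
Log2 fold change of FPKM + 1 (x axis) of each gene (y axis) in 3 comparisons and the interaction, with 95% intervals from limma. Filled points passed an adjusted p under 0.05. No point is filled for AZD6738 against DMSO, 7 are filled for IR against DMSO, 6 for AZD6738+IR against IR and 7 for the interaction.

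Counted together, 1 of the 8 genes was called higher and 6 lower in IR against DMSO, where 23.7% of all tested loci were called higher and 38.0% lower. The median log2 fold change of the 8 genes was -0.93 and that of all tested loci -0.10. In AZD6738+IR against DMSO 2 were called higher and 6 lower, beside 27.1% and 45.6% of all loci, with medians of -1.15 and -0.16. In AZD6738+IR against IR 2 were called higher and 4 lower, beside 19.6% and 31.5%, with medians of -0.28 and -0.07. These comparisons share libraries with each other, so their counts do not add up as separate evidence, and calls were common among all loci. Without AZD6738+IR library B, the library that stood apart, the counts in these 3 comparisons stayed at 7, 8 and 6 of 8 called. The log2 fold change of ATF3 in AZD6738+IR against IR was then 3.16 and that of PPP1R15A 1.45.

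The inhibitor without radiation changed none of the 8 genes past the threshold. In AZD6738 against DMSO limma called 0 of 8, beside 0.0937% of all loci called higher and 0.0546% called lower, and 5 of 8 had an unadjusted p under 0.05 (ATF3, TRIB3, CEBPG, PPP1R15A and STC2), as had 13.7% of all loci. All 8 fitted differences were above 0, with a median of 0.24 on the log2 scale against -0.0036 for all loci. The AZD6738 libraries lay above both DMSO libraries without overlap for 7 of the 8 genes, all but EIF4EBP1, and the same held for 24.3% of all tested loci. The largest differences were those of STC2, 0.50 (95% interval 0.20 to 0.79, limma adjusted p = 0.202), and ATF3, 0.40 (95% interval 0.20 to 0.61, limma adjusted p = 0.156). ATF4 itself differed by 0.02 (95% interval -0.09 to 0.14, limma adjusted p = 0.896).

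Set against the inhibitor alone, the irradiated groups differed in all 8 genes. In AZD6738+IR against AZD6738, ATF3 and PPP1R15A were called higher and 6 genes lower, beside 27.1% and 45.2% of all loci. In IR against AZD6738, ATF3 was called higher and 7 genes lower, beside 23.6% and 36.7%. The PPP1R15A difference in the latter, -0.25 on the log2 scale (limma adjusted p = 0.0208), lost its call without AZD6738 library A (adjusted p = 0.103, limma), IR library A (0.0915) or IR library B (0.0652) and under quantile normalization (limma adjusted p = 0.0875).

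Ordered by mean level, ATF4, TRIB3, CEBPG, STC2 and EIF4EBP1 ran from AZD6738 at the top through DMSO and IR to AZD6738+IR. JDP2 kept this order except that IR was the lowest. ATF3 ran from AZD6738+IR through IR and AZD6738 to DMSO, so its irradiated groups were on top while AZD6738 was again above DMSO. PPP1R15A was highest in AZD6738+IR, followed by AZD6738, DMSO and IR. Neighbours in these orders that did not differ past the threshold were AZD6738 and DMSO for every gene, IR and AZD6738+IR for JDP2 and STC2, and DMSO and IR for PPP1R15A.

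Whether the effect of radiation differed with the inhibitor was tested as an interaction, the log2 fold change of AZD6738+IR against AZD6738 minus that of IR against DMSO. It was called for 7 of the 8 genes, 2 above 0 and 5 below, beside 13.1% and 22.4% of all loci. The values above 0 were 2.81 for ATF3 (SE 0.118, limma adjusted p = 6.55e-05) and 1.20 for PPP1R15A (SE 0.0965, limma adjusted p = 0.000686). For ATF3, radiation raised the level by 1.08 on the log2 scale in solvent and by 3.89 with the inhibitor. For PPP1R15A the corresponding changes were -0.04 and 1.15, so that its rise passed the threshold with the inhibitor and not in solvent.

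The interaction was below 0 for EIF4EBP1 at -1.03 (SE 0.159, limma adjusted p = 0.00523), TRIB3 at -0.99 (SE 0.15, limma adjusted p = 0.0049), STC2 at -0.81 (SE 0.169, limma adjusted p = 0.0147), CEBPG at -0.61 (SE 0.098, limma adjusted p = 0.00614) and ATF4 at -0.27 (SE 0.0656, limma adjusted p = 0.0248). For these genes the fall with radiation was larger in the presence of the inhibitor, from a starting level that was higher by the uncalled amounts given above. The ATF4 interaction lost its call under quantile normalization (limma adjusted p = 0.136), with library totals set equal (0.0914) and with totals taken without the 4 most abundant loci (0.0584), and in 6 of the fits that left out 1 library, with limma adjusted p-values of 0.0513 to 0.0779. Those 6 libraries were all but IR library B and AZD6738+IR library A. The STC2 interaction lost its call without AZD6738 library A (-0.73, limma adjusted p = 0.0513) or IR library A (-0.73, limma adjusted p = 0.0502). JDP2 had an interaction of -0.11 (95% interval -0.41 to 0.18, limma adjusted p = 0.509).

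Among genes of the same pathway, those of amino acid supply and tRNA charging that ATF4 is known to activate fell after irradiation. The counts of this and the following lists stand against 23.7% of all loci called higher and 38.0% lower in IR against DMSO (median -0.10), and 19.6% and 31.5% in AZD6738+IR against IR (median -0.07). Of 25 listed genes 20 were tested, and in IR against DMSO 1 was called higher and 19 lower, with a median log2 fold change of -1.35. The gene called higher, SLC38A2, an amino acid transporter named here after its values were seen, measured 58.4 ± 2.2 FPKM (SD, n = 2) in DMSO and 94.6 ± 1.2 in IR, and at 92.8 ± 2.1 it was also the only gene of the list called in AZD6738 against DMSO (limma adjusted p = 0.0081). ASNS, asparagine synthetase, fell from 82.2 ± 3.8 FPKM (SD, n = 2) in DMSO to 10.3 ± 2.0 in IR and stood at 7.79 ± 0.78 in AZD6738+IR. PSAT1, which makes a precursor of serine, fell from 71.4 ± 3.2 to 17.5 ± 1.9 and stood at 8.41 ± 0.18 FPKM in AZD6738+IR, with a limma adjusted p = 0.000223 against IR. In AZD6738+IR against IR 2 genes, WARS and SLC6A9 (the latter named after its values were seen), were called higher and 12 lower, with a median of -0.38. SLC1A5, a glutamine transporter, fell in that comparison from 43.3 ± 0.98 to 21.2 ± 1.6 FPKM. WARS, a tryptophanyl-tRNA synthetase that interferon also induces, went against the list, with 63.9 ± 2.5 FPKM in DMSO, 26.6 ± 1.6 in IR and 224 ± 27 in AZD6738+IR.

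Of the ATF4 targets in stress signalling only 7 of 19 listed genes were in the table, and in IR against DMSO 1 was called higher and 3 lower (median -0.38), the latter 42.9% of those tested and near the share of all loci. DDIT3 (CHOP), a bZIP factor of prolonged stress, fell from 8.50 ± 1.3 FPKM in DMSO to 2.05 ± 1.5 in IR and measured 3.57 ± 0.73 in AZD6738+IR. XPOT, the exporter of tRNA from the nucleus, fell from 62.4 ± 2.8 to 22.6 ± 0.35 and then to 13.5 ± 0.18 FPKM. In AZD6738+IR against IR 1 gene was called higher and 2 lower (median 0.31). The gene called higher was GDF15, a secreted stress cytokine, which measured 43.0 ± 6.2 FPKM in DMSO, 42.5 ± 2.9 in IR and 109 ± 17 in AZD6738+IR (limma adjusted p = 0.000747 against IR). GDF15 is a target of p53 as well as of ATF4.

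Several genes that act on eIF2 upstream of ATF4 were called lower. Of 12 listed eIF2 subunits, eIF2B subunits and phosphatase subunits 9 were tested, and 0 were called higher and 6 lower in IR against DMSO (median -0.29) and 0 higher and 7 lower in AZD6738+IR against IR (median -0.36). EIF2B1, EIF2B2 and PPP1CB, named after their values were seen, were not called in IR against DMSO, with log2 fold changes of -0.02, -0.05 and -0.18. PPP1CC, a catalytic subunit of protein phosphatase 1, fell from 80.0 ± 2.2 FPKM in DMSO to 35.5 ± 0.87 in IR and 25.9 ± 0.47 in AZD6738+IR. EIF2S3, the gamma subunit of eIF2, measured 179 ± 8.1, 130 ± 0.25 and 74.7 ± 1.9 FPKM in these groups. None of the 4 eIF2 kinases was matched by symbol, so they were not analysed here.

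Among other bZIP factors that pair with ATF4 or C/EBP proteins, 8 of 12 were tested, with 1 called higher and 6 lower in IR against DMSO (median -0.53) and 3 higher and 1 lower in AZD6738+IR against IR (median 0.24). CEBPD, a C/EBP factor of inflammation, fell from 81.8 ± 1.7 to 34.8 ± 0.96 FPKM with IR and stood at 43.7 ± 6.5 in AZD6738+IR. NFE2L1, which drives proteasome genes, rose from 88.6 ± 0.36 in IR to 122 ± 3.2 FPKM in AZD6738+IR. Of the AP-1 and CREB/ATF factors 10 of 17 were tested, with 2 called higher and 4 lower in IR against DMSO (median -0.27), both shares near those of all loci, and 4 higher and 1 lower in AZD6738+IR against IR (median 0.17). JUN, with which ATF3 can pair, measured 7.37 ± 0.57 FPKM in DMSO, 11.4 ± 0.14 in IR and 24.1 ± 0.94 in AZD6738+IR, and rose 1.01 on the log2 scale over IR (limma adjusted p = 8.43e-05). FOSL2 and JUNB also rose in AZD6738+IR against IR, by 0.58 and 0.53. In IR against DMSO, ATF1 and FOS were among the 4 called lower, each by -0.64. In AZD6738+IR against IR, FOS was called higher by 0.22 (limma adjusted p = 0.0184) and ATF1 was not called. JUND measured 17.6 ± 1.2 FPKM in DMSO, 10.6 ± 3.5 in IR and 5.15 ± 4.6 in AZD6738+IR. It was called lower in AZD6738+IR against DMSO (-1.83, limma adjusted p = 0.022) but not against IR.

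Of 9 listed relatives of the 8 genes 5 were tested. In IR against DMSO 1 was called higher and 3 lower (median -0.51), and in AZD6738+IR against IR 2 higher and 2 lower (median 0.39). TRIB1 and TRIB2, pseudokinases like TRIB3, were called lower in IR against DMSO, as TRIB3 was, by -0.55 and -0.68 on the log2 scale. In AZD6738+IR against IR they were called higher, by 0.46 and 0.39, where TRIB3 was called lower. Against DMSO, AZD6738+IR gave -0.09 for TRIB1, which was not called, and -0.29 for TRIB2, which was called lower. EIF4EBP2, the relative of EIF4EBP1, was called higher in IR against DMSO by 0.35 and lower in AZD6738+IR against IR by -0.62, and measured 7.55 ± 0.004 FPKM in DMSO, 9.92 ± 0.16 in IR and 6.10 ± 0.42 in AZD6738+IR.

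Of the eIF4E and mTORC1 regulators 13 of 17 were tested, with 2 called higher and 4 lower in IR against DMSO (median 0.13), shares of 15.4% and 30.8% that are below those of all loci, and 0 higher and 6 lower in AZD6738+IR against IR (median -0.16). MLST8, a subunit of the mTOR complexes, measured 21.4 ± 1.0 FPKM in DMSO, 17.0 ± 0.0086 in IR and 9.62 ± 1.7 in AZD6738+IR. MTOR itself measured 16.5 ± 0.29 in IR and 11.6 ± 0.62 FPKM in AZD6738+IR and was called lower (limma adjusted p = 0.000584).

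The ATF6 and XBP1 arms of the unfolded protein response were read from 15 of 17 listed genes. In IR against DMSO 1 was called higher and 6 lower (median -0.13), the latter a share near that of all loci, and in AZD6738+IR against IR 8 higher and 1, EDEM1, lower (median 0.18). HERPUD1, a component of degradation at the endoplasmic reticulum, went from 29.9 ± 2.1 FPKM in DMSO to 19.8 ± 1.1 in IR and 29.2 ± 3.1 in AZD6738+IR. CALR, the chaperone calreticulin, measured 211 ± 2.2, 338 ± 1.5 and 407 ± 20 FPKM. HSPA5 (BiP), the main chaperone of that compartment, rose from 55.7 ± 4.3 in DMSO to 71.7 ± 0.95 FPKM in AZD6738+IR (0.36 on the log2 scale, limma adjusted p = 0.0041). It measured 67.7 ± 4.7 FPKM in AZD6738 and 58.6 ± 1.5 in IR. Neither AZD6738 against DMSO (0.28, limma adjusted p = 0.213) nor AZD6738+IR against AZD6738 (0.08, limma adjusted p = 0.319) was called for HSPA5.

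Targets of p53, a factor that responds to DNA breaks and can also activate ATF3, were called higher for 12 of 16 tested genes and lower for 0 in IR against DMSO (median 0.58). In AZD6738+IR against IR 10 were called higher and 2 lower (median 0.31), the latter being TIGAR and FDXR, of which FDXR is named after its values were seen. CDKN1A, the p21 inhibitor of cyclin-dependent kinases, measured 54.1 ± 1.5 FPKM in DMSO, 302 ± 11 in IR and 461 ± 49 in AZD6738+IR. GADD45A, a growth arrest gene that ATF4 can also activate, measured 18.1 ± 0.86, 28.7 ± 0.45 and 60.2 ± 2.8 FPKM.

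**Figure D3:**
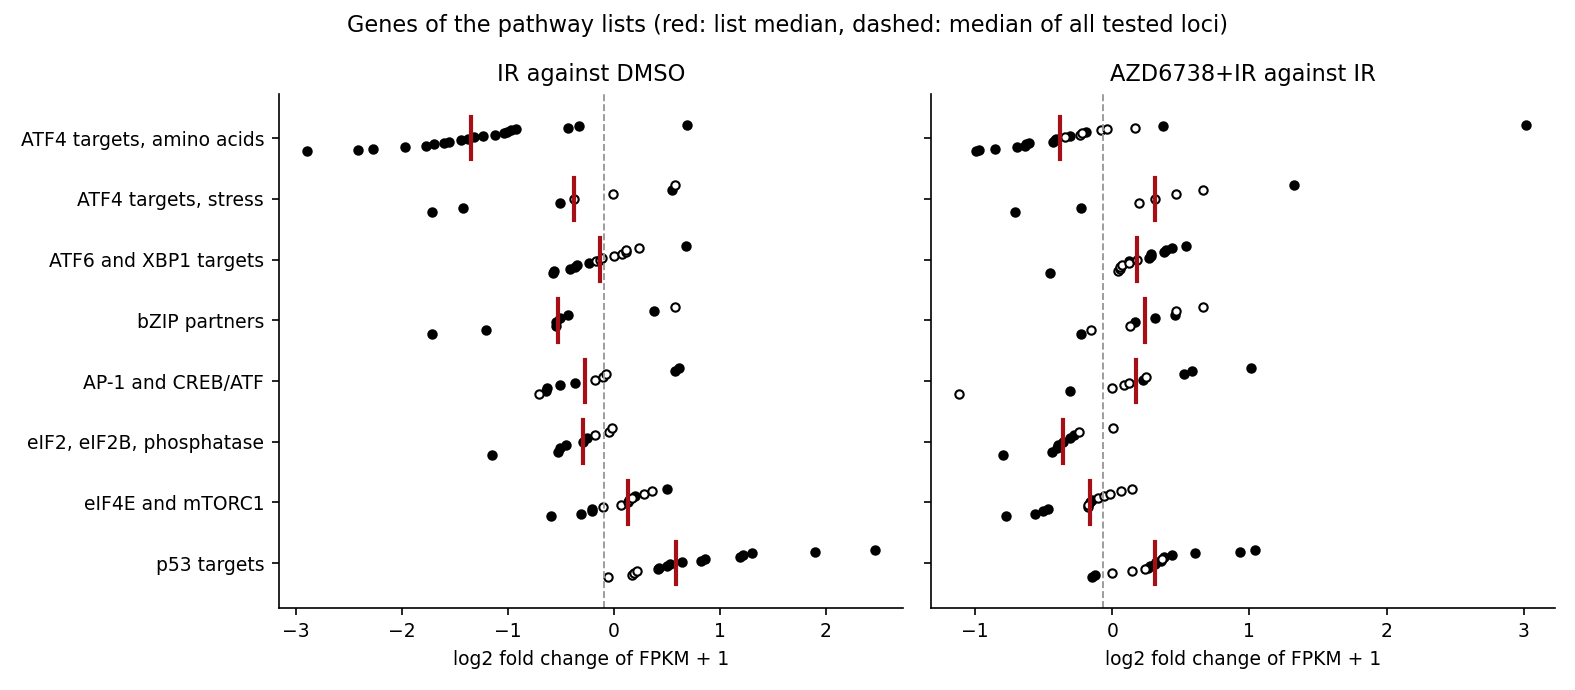
Log2 fold change of FPKM + 1 (x axis) of each tested gene of 8 pathway lists (y axis) in IR against DMSO and AZD6738+IR against IR. Filled points passed a limma adjusted p under 0.05, red bars are list medians and the dashed line is the median of all tested loci. The amino acid list has its median at -1.35 after IR, and WARS is its lone point at 3.02 in AZD6738+IR against IR.

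Profiles most like those of the 8 genes were sought among 4976 named genes with a mean of at least 5 FPKM, by the root mean square difference (RMS) of centred log2(FPKM + 1) values over 8 libraries. The points of each Pearson r are the same 8 libraries in 4 groups, so r mostly reflects differences between groups and is given as a description. Nearest to ATF4 were APIP, an enzyme of methionine salvage (RMS 0.0603, r = 0.9964), and C12orf10 (0.0607, r = 0.9964). Nearest to CEBPG were PRKRIR (0.0747, r = 0.9909) and CARS, a cysteinyl-tRNA synthetase (0.0756, r = 0.9909). Nearest to STC2 were the methionyl- and alanyl-tRNA synthetases MARS (0.130, r = 0.9941) and AARS (0.131, r = 0.985). Nearest to JDP2 were RAB32 (0.0603, r = 0.9938) and USF2 (0.0758, r = 0.9889).

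TRIB3 and EIF4EBP1 shared PSAT1 as their nearest gene, with RMS values of 0.142 (r = 0.995) and 0.221 (r = 0.9976). The next were the histone gene HIST1H3I for TRIB3 (0.190, r = 0.9911) and ASNS for EIF4EBP1 (0.236, r = 0.9904). ATF3 lay nearest to HELZ2, a helicase known as an interferon-stimulated gene (0.137, r = 0.9974). HELZ2 measured 1.73 and 1.64 FPKM in DMSO, 3.87 and 4.16 in IR, and 44.3 and 41.1 in AZD6738+IR. ATF3 started lower, at 0.730 and 0.873 FPKM in DMSO, and reached 33.0 and 35.5 in AZD6738+IR. The closeness of this match therefore depends on the added 1 FPKM. PPP1R15A lay nearest to PCGF5, a polycomb protein (0.0843, r = 0.995), and H1F0, a linker histone (0.116, r = 0.9799). PCGF5 was at 4.12 and 3.81 FPKM in DMSO and at 10.4 and 9.70 in AZD6738+IR.

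Among the 8 genes themselves, TRIB3 and EIF4EBP1 had an RMS of 0.172 (r = 0.9986) and JDP2 and CEBPG 0.141 (r = 0.9667). STC2 was nearer to CEBPG, at 0.180 (r = 0.9954), than to ATF4, at 0.192 (r = 0.9628). The value for JDP2 is again on the scale with 1 FPKM added. In FPKM, JDP2 fell 2.97-fold and CEBPG 1.71-fold in IR against DMSO. ATF3 and PPP1R15A had r = 0.9421 but an RMS of 1.16, since ATF3 moved over a wider range. ATF3 and ATF4 stood 2.29 apart (r = -0.8121).

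**Figure D4:**
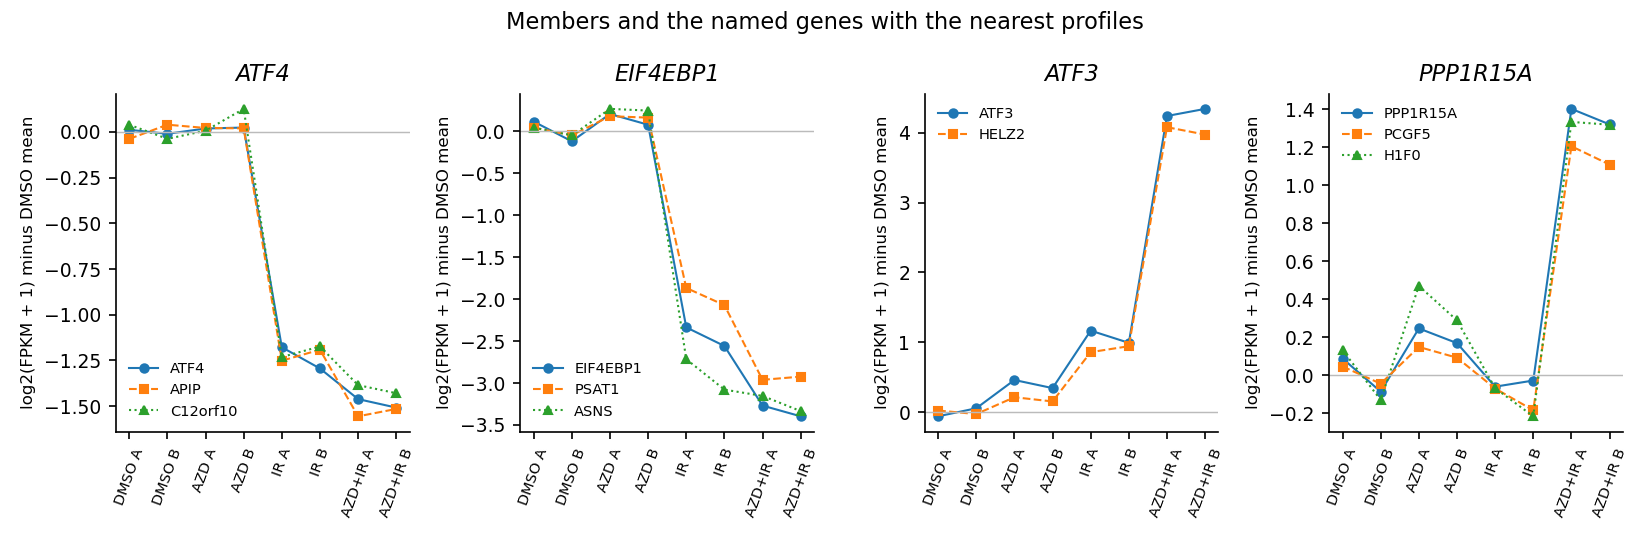
Difference of log2(FPKM + 1) from the DMSO mean (y axis) over the 8 libraries (x axis) for ATF4, EIF4EBP1, ATF3 and PPP1R15A, each with the named genes of nearest profile that the text gives; lines only join libraries. ATF3 and HELZ2 are moderately higher in the IR libraries and far higher in AZD6738+IR, with fitted log2 fold changes over DMSO of 4.29 and 4.03 in the latter. Both values include the added 1 FPKM, and with 0.1 FPKM in its place that of ATF3 was 5.25.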

How the data were processed

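Total RNA of MCF10A cells was read as paired 75 bp ends from stranded libraries depleted of ribosomal RNA, per the labels' protocols. FastQC, HISAT2 2.0.4, StringTie 1.3.4d and the build hg38 are named in the submitters' processing notes, which give no roles or settings here. The authors deposited 1 filtered table whose header names no unit, and the deposited values were taken as FPKM, which StringTie writes beside TPM. A few abundant RNAs can shift all FPKM values of a library. Low values of some library pairs shared a recurring ratio. It was 1.0897 at 8 of 215 loci for DMSO A over DMSO B, and 1.0102 at 10 of 197 for AZD6738 A over AZD6738 B. Between the 2 IR libraries, and between the 2 AZD6738+IR libraries, the commonest ratio occurred at only 1 locus. Counts and depth were not recovered from these values. The p-value columns that the authors deposited, with no comparison named, were not used.

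Of 14944 entries, 299 further entries of 217 symbols were left out, which left 14645 loci. Columns carry a group and a letter, A or B, which the labels' replicate numbers do not map to, and 0 value columns belonged to no sample. limma 3.58.1 (R 4.3.3) was run on log2(FPKM + 1) with an intensity trend, in 1 fit of 8 libraries with 1 coefficient per group and 4 residual degrees of freedom, for 7 contrasts. All tests were two-sided, and the script was tested on simulated data. Coordinates of the 8 genes (hg38) and their pseudogenes are from RefSeq, and their strands and overlapping genes are from GENCODE. Promoter sequences are from RefSeq (GRCh38.p14).

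The 8 genes and the lists of pathway genes and markers were chosen with earlier results of these data known. Beside the 8 genes, list genes are named where called in IR against DMSO, AZD6738+IR against DMSO or AZD6738+IR against IR, at most 4 per list and contrast by size of the log2 fold change, as are the 2 nearest profiles of each gene, of which 1 is not reported here. A few list genes outside this rule are named as exceptions, and the text says so. Alternatives were a pseudocount of 0.1, no filter or a mean of at least 5, other scalings, no trend, only the groups compared, a replicate block, and each library left out.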

Additional observations from a re-analysis of the deposited data

Results flagged for a closer look

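For 7 of the 8 genes the effect of radiation differed with the inhibitor by the interaction test in limma, each adjusted over all 12809 loci, of which 13.1% were called above 0 and 22.4% below. The difference on the log2 scale was 2.81 for ATF3 and 1.20 for PPP1R15A. It was -1.03 for EIF4EBP1, -0.99 for TRIB3, -0.81 for STC2, -0.61 for CEBPG and -0.27 for ATF4. The call for ATF4 was kept in 8 of 17 alternatives, and that for STC2 was lost without AZD6738 library A (limma adjusted p = 0.0513) or IR library A (0.0502). The rise of ATF3 and PPP1R15A in AZD6738+IR came beside a lower level of ATF4 RNA, at 141.7 and 137.2 FPKM against 172.7 and 159.3 in IR. What underlies this was not tested.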

How the results depend on the processing

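Over the alternatives run, which for most genes were 18 (17 for the interaction), the number of the 8 genes called was 0 in AZD6738 against DMSO throughout, 6 to 7 in IR against DMSO, 7 to 8 in AZD6738+IR against DMSO, 5 to 7 in AZD6738+IR against IR, 7 to 8 in both comparisons with AZD6738, and 5 to 7 for the interaction. Of 992 values of single genes under an alternative, 972 kept their side of the threshold, 16 lost a call, 4 gained one and 0 reversed a call. Of the 972, 5 had another sign or were at 0, all uncalled: PPP1R15A in IR against DMSO in 3 (up to 0.04), and, under quantile normalization, the JDP2 interaction (0.0042) and ATF4 in AZD6738 against DMSO (0). The calls lost or gained belong to the interactions of ATF4 and STC2, PPP1R15A in IR against AZD6738, and CEBPG and STC2 in AZD6738+IR against IR. Their causes were not tested. JDP2 gave no value with a mean of at least 5 FPKM, nor in AZD6738+IR against IR with only those groups, where its mean was below the filter. A fit with 1 library left out assumes that the lone library of that group varies like the other groups. ATF3 and PPP1R15A stayed called in AZD6738+IR against IR under all 18 alternatives, at 3.12 to 3.56 and 1.36 to 1.48 on the log2 scale.

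Deviations of libraries of the same letter had correlations from -0.0513 to 0.158 over 12809 loci. What the letters stand for is not stated, and such correlations cannot show whether libraries of a letter were prepared together. The main fit did not take them as paired. With the letter as a replicate block, 7 of the 8 genes were called in AZD6738+IR against IR in place of 6, STC2 being added at -0.31 (limma adjusted p = 0.0318). No other call of the 8 genes changed under the replicate block.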
